A study of Mus musculus with 12 samples.

Results

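Genes of branched-chain amino acid breakdown were followed in the mouse left ventricle, in a setting of HFpEF, heart failure in which the ejection fraction is preserved. These 10 of the 29564 genes in the deposited tables were chosen by name: Bcat2, Bckdha, Bckdhb, Dbt, Bckdk, Ppm1k, Ivd, Mccc1, Mccc2 and Hibadh. Poly(A) RNA was sequenced from 12 mice, with 1 library per mouse and 4 mice in each of 3 groups. Control + Veh mice (libraries C1 to C4) were non-failing and received vehicle by mouth. HFpEF + Veh mice (V1 to V4) were fed a high-fat diet (HFD) together with L-NAME, which blocks nitric oxide synthases, and received the same vehicle. HFpEF + TYA-018 mice (T1 to T4) had that model and received 15 mg/kg of TYA-018, an oral inhibitor of the deacetylase HDAC6. All 12 animals were WT mice of the C57BL6 strain, and the labels gave neither sex nor age. The title of the series speaks of a single dose while the treatment protocol speaks of daily dosing for weeks, and the title, which matches an experiment on hearts taken hours after a single dose in the published results, was followed here. The 10 genes were proposed with results from these libraries in view, and which values were weighed was not recorded. Every level and fold change of the 10 genes is therefore a description and carries no test, in any of the 3 comparisons.

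Leucine, isoleucine and valine are burned in mitochondria by a shared opening and then by separate branches. The transaminase BCAT2 removes the amino group, and the branched-chain ketoacid dehydrogenase complex (BCKDH) then makes the irreversible, committing step. BCKDH is switched off when its kinase BCKDK phosphorylates the E1 alpha subunit, and switched on again by the phosphatase PPM1K (also called PP2Cm). The heart is a tissue with an active pathway, and the pathway's loss in failing hearts has been a subject of research.

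The RefSeq promoter table held 11 windows for 9 of the 10 genes, each of 300 bases (250 before and 50 after a transcription start, GRCm38.p6). Dbt had no window there. The stretches before the start are shown for Ppm1k, Bckdhb, Ivd and Bcat2, the genes whose 4 HFpEF + Veh libraries all lay below the 4 Control + Veh libraries. They lie at chr6:57535488-57535647 (minus strand) for Ppm1k, chr9:83924977-83925136 (plus strand) for the first of the windows of Bckdhb, chr2:118861834-118861953 (plus strand) for Ivd and chr7:45569993-45570152 (plus strand) for the first window of Bcat2. Each is written 5′ to 3′ on the gene's strand, stops before the annotated first exon, and has each CCAAT box in capitals, read as CCAAT or, on the other strand, as ATTGG.
Ppm1k: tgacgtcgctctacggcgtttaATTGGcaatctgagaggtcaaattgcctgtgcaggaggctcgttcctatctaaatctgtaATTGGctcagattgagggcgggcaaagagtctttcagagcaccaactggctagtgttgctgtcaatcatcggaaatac
Bckdhb: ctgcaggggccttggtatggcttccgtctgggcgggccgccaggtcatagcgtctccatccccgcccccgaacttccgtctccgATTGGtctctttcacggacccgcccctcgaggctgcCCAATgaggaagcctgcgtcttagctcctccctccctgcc
Ivd: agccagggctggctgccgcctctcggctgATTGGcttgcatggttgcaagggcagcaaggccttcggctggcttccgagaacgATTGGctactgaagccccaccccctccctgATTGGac
Bcat2: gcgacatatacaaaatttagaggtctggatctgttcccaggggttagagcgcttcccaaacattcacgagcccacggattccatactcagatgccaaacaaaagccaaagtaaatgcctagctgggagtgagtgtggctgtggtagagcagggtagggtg
Over the whole 300-base windows, CCAAT was found on either strand in 8 of the 11 windows, from 7 of the 9 genes (Ppm1k, Bckdhb, Bckdk, Ivd, Mccc1, Mccc2 and Hibadh), beside 37.4% of all 32851 promoter windows in the table. The window of Ivd held the most copies, 4 in all. Neither window of Bcat2 nor the window of Bckdha held one. The letters TNAAGGTCA (a binding site of estrogen-related receptors, 1.28% of all windows) were found in 0 of the 11 windows, and CACGTG (the E-box, 7.15%) in the window of Mccc2 alone. These are matches of letters only, and nothing was read from them about any factor.

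Total estimated counts ranged from 61.2 to 83.9 M per library. All 10 genes passed the filter on low counts, among 14333 genes tested. Levels are given as CPM, counts scaled to library size by TMM, which do not correct for gene length, and log2 fold changes as estimate ± standard error from 1 edgeR model of the 12 libraries. The libraries differed in more than the pathway. The summed CPM of 6 cardiomyocyte markers (Myh6, Tnnt2, Tnni3, Actn2, Ryr2 and Pln, none of them at 0) ran from 15237 to 19192 in Control + Veh, from 12344 to 13111 in HFpEF + Veh and from 14318 to 15536 in HFpEF + TYA-018. Markers of fibroblasts (5 genes, 393 to 559 in Control + Veh, 542 to 759 in HFpEF + Veh, 358 to 526 in HFpEF + TYA-018) and of endothelium (4 genes, 537 to 669, 715 to 879 and 523 to 680 in the same order) were higher in HFpEF + Veh, as were red cell genes (5 genes, medians of 2109, 6945 and 2888). Mitochondrially encoded genes took 37.0% to 40.6% of the counts in Control + Veh, 43.1% to 47.7% in HFpEF + Veh and 35.4% to 41.2% in HFpEF + TYA-018. Markers of fat cells summed to 1.14 CPM at most, of atrial muscle to 2.87, and of skeletal muscle to 14.0 in V2 and at most 0.771 elsewhere. In tissue RNA, fewer cells of a type and less RNA per cell cannot be told apart.

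Read together, the 10 genes were low in HFpEF + Veh hearts and back near the control level in HFpEF + TYA-018 hearts. The median log2 fold change of HFpEF + Veh against Control + Veh was -0.29 over the 10 genes and -0.01 over all tested genes. In HFpEF + TYA-018 against HFpEF + Veh it was 0.42, beside 0.00 over all tested genes, and in HFpEF + TYA-018 against Control + Veh it was 0.03, beside -0.02. The model called 6 of the 10 lower in the HFpEF + Veh hearts than in controls (Ppm1k, Bckdhb, Dbt, Bcat2, Ivd and Hibadh), where 10.3% of all tested genes were called lower. It called 8 of the 10 higher in HFpEF + TYA-018 than in HFpEF + Veh (all but Bckdha and Mccc2), where 8.93% of all were called higher, and 2 lower under TYA-018 than in controls (Ppm1k and Bckdhb), where 2.74% were. Groups did not overlap for 4 of the 10 in the first comparison, all lower (11.5% of all tested genes were lower without overlap and 12% higher). They did not overlap for 8 in the next, all higher (12% of all were higher and 13.1% lower), and for 3 in the last, with Ppm1k and Bckdhb lower and Hibadh higher (7.05% of all were lower and 7.76% higher). Since the genes were proposed from these libraries, nothing is read from those counts.

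**Figure D1:**
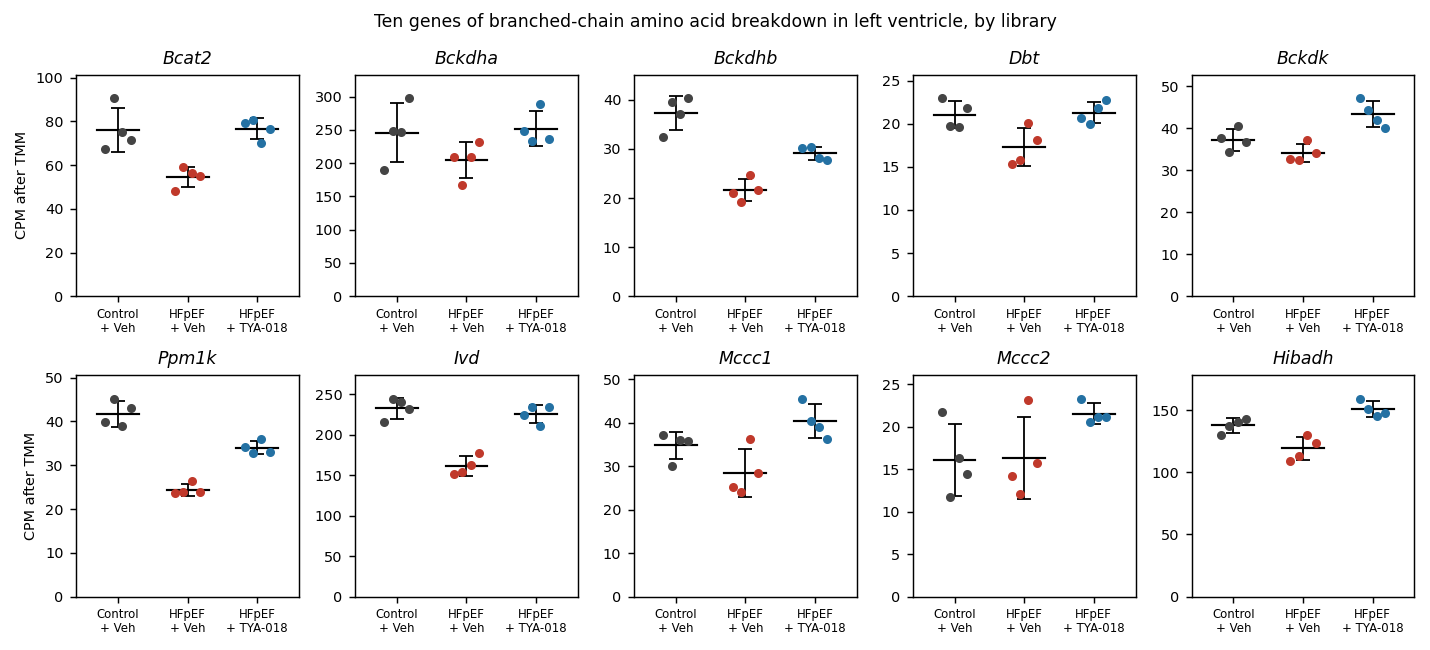
CPM after TMM scaling (vertical axes, each from 0) of the 10 genes in the 12 libraries, 1 point per mouse, with the group mean (horizontal line) and SD (bars). Ppm1k, Bckdhb, Bcat2 and Ivd in the 4 HFpEF + Veh libraries lie below all 4 Control + Veh libraries, while Mccc2 overlaps between those groups.

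Bcat2 encodes the mitochondrial branched-chain transaminase of the first step. Its CPM was 67.5, 90.5, 75.1 and 71.3 in C1 to C4, 48.0, 59.2, 56.2 and 54.9 in V1 to V4, and 79.4, 80.6, 70.0 and 76.4 in T1 to T4. All HFpEF + Veh libraries lay below both other groups, which overlapped each other. The log2 fold change was -0.48 ± 0.094 in HFpEF + Veh against Control + Veh and 0.49 ± 0.094 in HFpEF + TYA-018 against HFpEF + Veh. HFpEF + TYA-018 differed from Control + Veh by 0.01 ± 0.094. The gene lies at chr7:45570153-45589711 on the plus strand (GRCm38, GENCODE M21) and shares exonic sequence with 0610005C13Rik on the opposite strand. Of its 31-base words, 15.2% occur in other genes, 2.08% in the same sense.

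Bckdha and Bckdhb encode the alpha and beta subunits of E1, the part of BCKDH that removes carbon dioxide from the ketoacids. Both belong to 1 enzyme, yet Bckdhb stood further below its control mean than Bckdha in HFpEF + Veh. Bckdhb CPM was 32.5, 39.5, 37.1 and 40.3 in C1 to C4, 21.01, 19.1, 24.6 and 21.7 in V1 to V4, and 30.2, 30.4, 28.1 and 27.7 in T1 to T4. The 3 groups did not overlap, with HFpEF + TYA-018 between the others. HFpEF + Veh stood at 57.9% of the Control + Veh mean and HFpEF + TYA-018 at 77.9%. As log2 fold changes these were -0.79 ± 0.085 and -0.36 ± 0.084, and the rise from HFpEF + Veh to HFpEF + TYA-018 was 0.43 ± 0.084. That rise depends on how gene length is treated, since the deposited effective length of Bckdhb ran from 491 to 546 bases in HFpEF + Veh and from 581 to 639 in HFpEF + TYA-018. With effective lengths as an offset it was 0.02, and HFpEF + TYA-018 was then lower than Control + Veh by -0.67 on the log2 scale.

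Bckdha was more abundant and more scattered. Its CPM ran from 189.6 to 297 in Control + Veh, from 168 to 232 in HFpEF + Veh and from 233 to 289 in HFpEF + TYA-018. C1 lay inside the HFpEF + Veh range, and every HFpEF + TYA-018 library lay above every HFpEF + Veh library. Log2 fold changes were -0.27 ± 0.13, 0.30 ± 0.13 and 0.03 ± 0.13 in the order of the comparisons as given for Bcat2. In the annotation, 54.6% of the 31-base words of Bckdha also occur in B3gnt8 on the opposite strand and 0% in another gene in the same sense. B3gnt8 itself ran from 0 to 3.28 CPM and was at 0 in 4 libraries. The ratio of Bckdhb to Bckdha CPM within a library was 0.136 to 0.172 in Control + Veh, 0.0936 to 0.118 in HFpEF + Veh and 0.0970 to 0.130 in HFpEF + TYA-018. The control ratios thus lay above all 8 HFpEF ratios, treated or not.

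Dbt encodes E2, the core of BCKDH that passes the acyl group to coenzyme A. Its CPM ran from 19.7 to 22.9 in Control + Veh, from 15.3 to 20.1 in HFpEF + Veh and from 19.9 to 22.8 in HFpEF + TYA-018. V3, at 20.1, was the HFpEF + Veh library that reached into both other groups. Log2 fold changes were -0.28 ± 0.091 in HFpEF + Veh against Control + Veh, 0.30 ± 0.091 in HFpEF + TYA-018 against HFpEF + Veh and 0.02 ± 0.090 in HFpEF + TYA-018 against Control + Veh.

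Of the kinase and the phosphatase of BCKDH, the phosphatase stood further below its control mean in HFpEF + Veh. Ppm1k, the activating phosphatase, had 39.8, 45.2, 38.9 and 43.0 CPM in C1 to C4, 23.6, 23.8, 26.4 and 23.8 in V1 to V4, and 34.2, 32.8, 36.0 and 33.0 in T1 to T4. All 3 groups were separate, with HFpEF + TYA-018 between the others. Its log2 fold change was -0.77 ± 0.062 in HFpEF + Veh against Control + Veh, which is 58.5% of the control mean. It was 0.48 ± 0.062 in HFpEF + TYA-018 against HFpEF + Veh and -0.30 ± 0.061 in HFpEF + TYA-018 against Control + Veh, so that 81.4% of the control mean was reached. Across the 10 processing alternatives described at the end, and the analysis as reported, the difference of HFpEF + Veh from Control + Veh ran from -1.03 to -0.58 and that of HFpEF + TYA-018 from HFpEF + Veh from 0.46 to 0.91.

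Bckdk, the inactivating kinase, had 37.8, 34.3, 40.6 and 36.7 CPM in C1 to C4, 32.7, 32.5, 37.3 and 34.1 in V1 to V4, and 47.2, 44.4, 42.0 and 40.0 in T1 to T4. Control + Veh and HFpEF + Veh overlapped, and HFpEF + TYA-018 lay above HFpEF + Veh and reached into the control range at T4. The log2 fold change was -0.13 ± 0.070 in HFpEF + Veh against Control + Veh, 0.35 ± 0.070 in HFpEF + TYA-018 against HFpEF + Veh and 0.22 ± 0.070 in HFpEF + TYA-018 against Control + Veh. The first of these changed sign to 0.22 with effective lengths as an offset and to 0.24 on TPM rescaled to nuclear protein-coding genes, and the middle one shrank to 0.04 and 0.05.

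Set against each other within a library, kinase and phosphatase CPM gave a Bckdk to Ppm1k ratio of 0.948, 0.759, 1.04 and 0.853 in C1 to C4. The ratio was 1.38, 1.36, 1.41 and 1.43 in V1 to V4, and 1.38, 1.35, 1.17 and 1.21 in T1 to T4. Every HFpEF ratio, with or without TYA-018, lay above every control ratio, and those of HFpEF + Veh and HFpEF + TYA-018 overlapped. The ratio compares levels that are not corrected for length, so its size does not give molecules of kinase per molecule of phosphatase. Its change under TYA-018 also depends on how length is treated. In HFpEF + TYA-018 against HFpEF + Veh the log2 fold changes were 0.35 for Bckdk and 0.48 for Ppm1k on counts. With effective lengths as an offset they were 0.04 and 0.56.

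**Figure D2:**
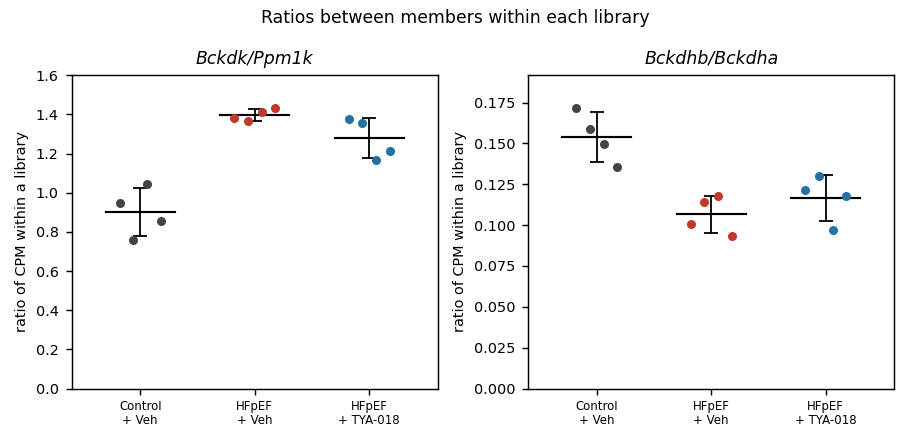
Ratio of CPM within a library (vertical axes, from 0) of Bckdk to Ppm1k (left) and of Bckdhb to Bckdha (right), 1 point per mouse, with group mean (line) and SD (bars). The Control + Veh points lie below the 8 HFpEF points on the left (0.759 to 1.04 against 1.17 to 1.43) and above them on the right (0.136 to 0.172 against 0.0936 to 0.130).

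The leucine branch was represented by 3 genes. Ivd, the dehydrogenase of isovaleryl-CoA, had 215, 245, 240.1 and 231 CPM in C1 to C4, 151, 154, 163 and 178 in V1 to V4, and 224, 235, 211 and 235 in T1 to T4. HFpEF + Veh lay below both other groups without overlap, and those overlapped each other. Log2 fold changes were -0.53 ± 0.069 in HFpEF + Veh against Control + Veh, 0.49 ± 0.069 in HFpEF + TYA-018 against HFpEF + Veh and -0.04 ± 0.068 in HFpEF + TYA-018 against Control + Veh.

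Levels per length differed from CPM for Ivd. Its deposited effective length was 8405 to 10293 bases in C2, C4, V2 and V4 and 1728 to 3022 bases in the other 8 libraries, while the longest annotated transcript has 3665. C2 and C4 split from C1 and C3, and V2 and V4 from V1 and V3, so the split ran inside groups. The log2 fold change of HFpEF + TYA-018 against Control + Veh was accordingly -0.04 on counts, 0.81 with the lengths as offset and 1.16 on log2(TPM + 1). The plot of Ivd against effective length shows that CPM did not split in this way. The lengths also exceeded the longest transcript of GENCODE M21 in all 12 libraries for 4 of the genes (Ppm1k, Bckdha, Dbt and Bcat2). The reads were quantified against GENCODE M25, which was not used here, so what the deposited lengths hold is uncertain, as are the TPM values and the values with lengths as offset. The cause of the long values was not tested.

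**Figure D3:**
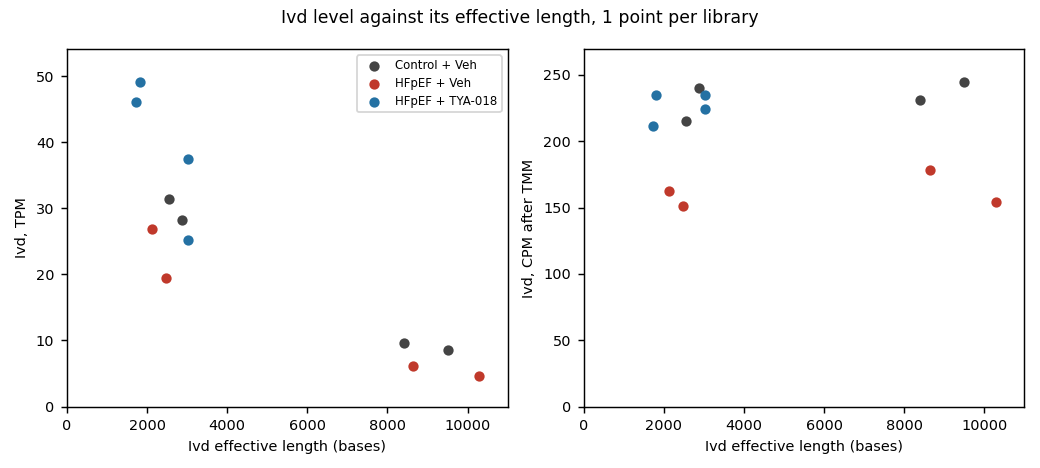
Ivd level (vertical axes, from 0) as TPM (left) and as CPM after TMM (right) against the deposited effective length of Ivd in bases (horizontal axes), 1 point per library, coloured by group. The 4 libraries with lengths of 8405 bases and more have TPM of 4.64 to 9.59, and by CPM 2 of them (C2 and V4) are the highest of their groups while C4 and V2 lie between other libraries of theirs.

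Mccc1 and Mccc2 encode the biotin-carrying and the other subunit of methylcrotonyl-CoA carboxylase, the next enzyme for leucine. Mccc1 CPM was 37.2, 30.1, 35.9 and 35.8 in C1 to C4, 25.1, 24.0, 36.2 and 28.4 in V1 to V4, and 45.5, 40.3, 39.0 and 36.3 in T1 to T4. V3 stood with the controls, the other HFpEF + Veh libraries lay below them, and HFpEF + TYA-018 lay above HFpEF + Veh by a narrow margin at T4 against V3. Log2 fold changes were -0.29 ± 0.12 in HFpEF + Veh against Control + Veh, 0.50 ± 0.12 in HFpEF + TYA-018 against HFpEF + Veh and 0.21 ± 0.12 in HFpEF + TYA-018 against Control + Veh. Mccc2 was not lower in HFpEF + Veh on average. Its CPM was 21.7, 11.7, 16.3 and 14.5 in C1 to C4, 14.2, 12.1, 23.1 and 15.7 in V1 to V4, and 23.3, 20.6, 21.1 and 21.2 in T1 to T4. C1 and V3 stood above the rest of their groups and overlapped HFpEF + TYA-018. Mccc2 log2 fold changes were 0.02 ± 0.20, 0.40 ± 0.20 and 0.42 ± 0.20 in that order, and the first ran from -0.20 to 0.20 when single libraries were left out.

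Hibadh encodes 3-hydroxyisobutyrate dehydrogenase of the valine branch. Its CPM ran from 130.1 to 143 in Control + Veh, from 109.6 to 130.3 in HFpEF + Veh and from 146 to 159.5 in HFpEF + TYA-018. HFpEF + TYA-018 lay above all 8 other libraries, and V3 touched the lowest control. The log2 fold change was -0.21 ± 0.065 in HFpEF + Veh against Control + Veh, 0.34 ± 0.065 in HFpEF + TYA-018 against HFpEF + Veh and 0.13 ± 0.065 in HFpEF + TYA-018 against Control + Veh.

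**Figure D4:**
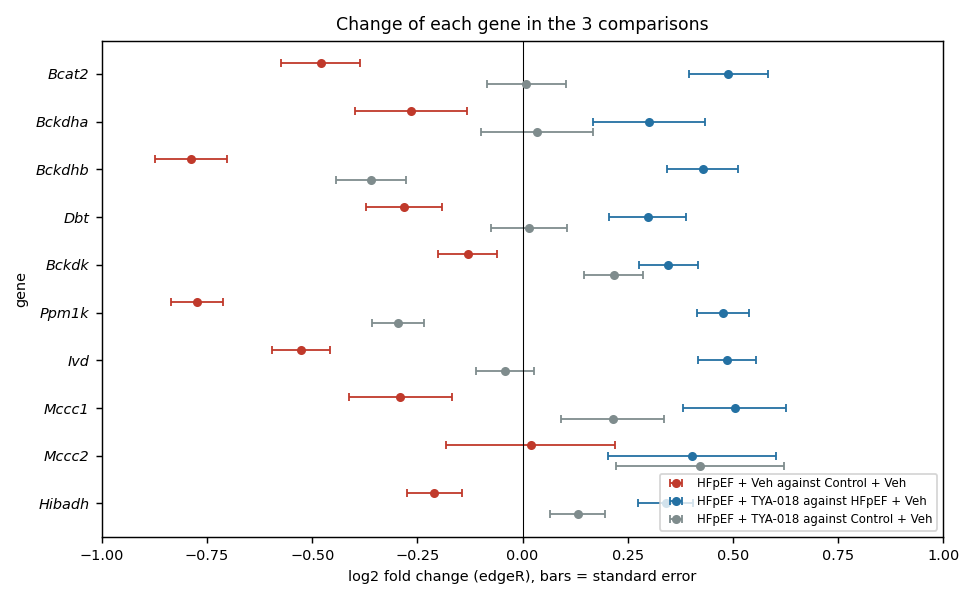
Log2 fold change (horizontal axis, points) with standard error (bars) of the 10 genes in the 3 comparisons, ordered by step of the pathway. HFpEF + Veh against Control + Veh is negative for 9 of 10 genes, HFpEF + TYA-018 against HFpEF + Veh is positive for 10 of 10, and HFpEF + TYA-018 against Control + Veh lies between -0.36 and 0.42.

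HFpEF + Veh hearts were not alike. V3 was the highest library of its group for 7 of the 10 genes, and V1 and V2 were each the lowest for 5. The mean of the 10 genes' log2 CPM, centred per gene, was -0.36, -0.39, -0.08 and -0.22 in V1 to V4. It ran from 0.09 to 0.15 in Control + Veh and from 0.12 to 0.21 in HFpEF + TYA-018. Without V3 the median log2 fold change of HFpEF + Veh against Control + Veh was -0.39, and without V2 it was -0.23. Set against cardiomyocyte RNA, the summed CPM of the 10 genes per 1000 CPM of the 6 cardiomyocyte markers was 47.0 to 52.9 in Control + Veh, 49.9 to 58.8 in HFpEF + Veh and 57.2 to 63.1 in HFpEF + TYA-018. On that scale Control + Veh and HFpEF + Veh overlapped. HFpEF + Veh and HFpEF + TYA-018 overlapped too (V3 at 58.8), and HFpEF + TYA-018 lay above all of Control + Veh. Low levels in HFpEF + Veh, back near control under TYA-018, were thus not seen on that scale. The marker sum rests most on Tnnt2 and Tnni3, and that of the 10 genes on Bckdha, Ivd and Hibadh. The 6 markers did not move alike. As log2 ratios of group means, HFpEF + Veh against Control + Veh ran from -0.84 (Myh6) to -0.16 (Actn2), with Tnni3 at -0.55 and Tnnt2 at -0.49. In HFpEF + TYA-018 against Control + Veh, Tnni3 was at -0.37 and Tnnt2 at -0.33, and the others lay between 0.05 (Pln) and 0.12 (Actn2). The part of the cell makeup and of the mitochondrially encoded share in the levels was not tested. With the 13 mitochondrially encoded genes left out of the model the median was -0.29. Leaving out so few genes before TMM scaling can hardly move the fold changes of the others, so nothing is read from that value.

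Order of level between genes can be read per length only. By median TPM in Control + Veh the order was Hibadh (35.6), Bckdha (27.7), Bckdhb (25.2), Ivd (18.9), Mccc1 (7.14), Bcat2 (6.88), Bckdk (6.36), Mccc2 (2.03), Ppm1k (1.602) and Dbt (1.45). Neighbours overlapped in range over the 4 libraries except Hibadh over Bckdha, Ivd over Mccc1 and Bckdk over Mccc2. Ppm1k and Dbt, at the bottom, changed places by median in the HFpEF groups. Their ranges were apart in HFpEF + Veh (0.740 TPM for Ppm1k and 0.924 for Dbt) and overlapped under TYA-018 (1.37 and 1.62), as they did in Control + Veh. Bckdk (5.80) stood above Bcat2 (4.76) and Mccc1 (4.65) in HFpEF + Veh, and under TYA-018 Ivd (41.7) came first, above Hibadh (40.9), and Bcat2 (9.10) stood above Mccc1 (8.53), all with overlapping ranges. TPM inherits the effective lengths, which for Ppm1k averaged 9329 bases in Control + Veh although its longest annotated transcript has 5560, so the order is that of the deposited table only.

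A further 30 genes of the pathway were tested, and all 30 passed the filter on low counts. They cover transport, the cytosolic transaminase, E3, the remaining enzymes of the branches, propionyl-CoA use, electron acceptors, cofactor attachment and the regulator Klf15. Calls are edgeR quasi-likelihood tests with a threshold of 0.05 on the p adjusted by Benjamini-Hochberg across the 14333 genes. The list of 30 was drawn up with earlier results of these data known. The shares of it that were called are therefore descriptions beside those of all tested genes, and give no independent evidence on the pathway.

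In HFpEF + Veh against Control + Veh the enzymes that changed fell and the plasma membrane transporters that changed rose. Of the 30 genes 11 were called (2 higher, 9 lower), or 36.7%, where 21.2% of all tested genes were (10.9% higher, 10.3% lower), with a median log2 fold change of -0.11. The transporters that rose were Slc7a5 (LAT1, from 4.20 ± 0.43 to 6.72 ± 0.83 CPM, mean ± SD, n = 4, log2 fold change 0.68 ± 0.13, adjusted p = 0.0051) and its partner chain Slc3a2 (from 21.98 ± 6.0 to 34.6 ± 4.6 CPM, 0.66 ± 0.20, adjusted p = 0.033). Slc25a44, the mitochondrial carrier of these amino acids, was at 0.15 ± 0.057 (adjusted p = 0.076), with HFpEF + Veh above Control + Veh in all libraries. In the isoleucine branch 3 of 4 genes fell. Hsd17b10, a dehydrogenase of that branch that also serves in mitochondrial RNA processing, went from 103 ± 17 to 71.1 ± 5.5 CPM (-0.54 ± 0.11, adjusted p = 0.0048). Acadsb, the short branched-chain acyl-CoA dehydrogenase, went from 81.6 ± 1.5 to 64.0 ± 3.7 CPM (-0.35 ± 0.065, adjusted p = 0.0036), and the hydratase Echs1, shared with valine and fatty acid breakdown, changed by -0.26 ± 0.068 (adjusted p = 0.019).

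Valine enzymes fell in 2 of 3 cases in the same comparison, Aldh6a1 (methylmalonate semialdehyde dehydrogenase, -0.35 ± 0.090, adjusted p = 0.017) and Acad8 (isobutyryl-CoA dehydrogenase, -0.25 ± 0.064, adjusted p = 0.018), while Hibch was at -0.04 ± 0.068 (adjusted p = 0.74). In propionyl-CoA use 3 of 6 fell. Mmab, which makes the cobalamin cofactor of methylmalonyl-CoA mutase, went from 24.2 ± 0.87 to 18.01 ± 1.0 CPM (-0.43 ± 0.057, adjusted p = 0.00078), and the propionyl-CoA carboxylase subunits Pcca and Pccb changed by -0.25 ± 0.064 (adjusted p = 0.019) and -0.27 ± 0.063 (adjusted p = 0.012). Auh, the hydratase of the leucine branch, was at -0.18 ± 0.073 (adjusted p = 0.11). None of the 3 electron acceptor genes and none of the 4 cofactor genes was called. Bcat1 (0.35 ± 0.21, adjusted p = 0.25), Dld (0.00 ± 0.074, adjusted p = 0.99) and Klf15 (0.01 ± 0.22, adjusted p = 0.99) did not pass either. Calls depended on single libraries for Slc3a2 (highest adjusted p 0.091, lost without C2, C3, C4, V2 or V4), Echs1 (0.054, lost without C2, V1 or V2), Pcca (0.057, lost without C3, V1 or V2) and Acad8 (0.053, lost without C2). With effective lengths as offset 7 of the 30 were called, beside 1444 of all 14333 tested genes (3033 in the main fit). The calls of Slc7a5 (0.66, adjusted p = 0.18), Acadsb (-0.24, adjusted p = 0.18), Acad8 (-0.34, adjusted p = 0.11) and Pcca (0.05, adjusted p = 0.88) were lost there. On the 3 TPM scales with limma no gene of the 30 was called higher, Slc7a5 and Slc3a2 included. Of all tested genes 51, 93 and 651 were called higher on those scales, where the main fit had 1561.

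HFpEF + TYA-018 hearts had more mRNA of most of these enzymes than HFpEF + Veh hearts. Of the 30 genes 15 were called (14 higher, 1 lower), or 50.0%, where 19.3% of all tested genes were (8.93% higher, 10.4% lower), with a median of 0.23. Echs1 rose most, from 121 ± 8.6 to 174 ± 12 CPM (0.52 ± 0.068, adjusted p = 0.0010), and Acad8 rose by 0.45 (21.7 ± 1.4 to 29.7 ± 1.4 CPM, standard error 0.064, adjusted p = 0.0014). Auh rose too (0.25 ± 0.073, adjusted p = 0.034), as did Hibch of the valine branch (32.4 ± 3.3 to 41.3 ± 1.6 CPM, 0.35 ± 0.068, adjusted p = 0.0057) and Acat1, the thiolase of isoleucine and ketone bodies (0.23 ± 0.067, adjusted p = 0.035). Of 6 genes of propionyl-CoA use 5 rose, namely Pcca (30.99 ± 2.2 to 40.8 ± 2.2 CPM, 0.40 ± 0.064, adjusted p = 0.0026), Pccb (0.31 ± 0.063), Mcee (0.44 ± 0.11), Mut (0.27 ± 0.087) and Mmab (0.28 ± 0.057).

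The electron transfer flavoprotein, which takes electrons from the acyl-CoA dehydrogenases of the pathway, rose in both subunits under TYA-018, Etfa from 274 ± 23 to 357 ± 18 CPM (0.38 ± 0.076, adjusted p = 0.0062) and Etfb by 0.42 ± 0.13 (adjusted p = 0.037). Lias, the lipoate synthase, rose by 0.22 ± 0.067 (adjusted p = 0.040). Slc43a1 (LAT3) was the 1 gene that fell, from 2.62 ± 0.33 to 1.62 ± 0.16 CPM (-0.69 ± 0.14, adjusted p = 0.0058). The isoleucine enzyme Acadsb stayed low, with 64.0 ± 3.7 CPM in HFpEF + Veh against 65.9 ± 5.5 under TYA-018 (0.04 ± 0.065, adjusted p = 0.69). Aldh6a1 (0.12 ± 0.090, adjusted p = 0.38) and Hsd17b10 (0.27 ± 0.11, adjusted p = 0.096), which had also fallen in HFpEF + Veh, were not called either. Neither were the transporters raised in HFpEF + Veh, Slc7a5 (-0.39 ± 0.13, adjusted p = 0.059) and Slc3a2 (-0.43 ± 0.20, adjusted p = 0.14). Not called were also Slc25a44 (-0.06 ± 0.057, adjusted p = 0.46), Bcat1 (-0.60 ± 0.21, adjusted p = 0.065), Dld (0.14 ± 0.074, adjusted p = 0.21) and Klf15 (0.22 ± 0.22, adjusted p = 0.51). Calls were lost on leaving out single libraries for Auh (highest adjusted p 0.088), Acat1 (0.10), Mcee (0.056), Mut (0.13), Etfb (0.11) and Lias (0.11), for each of these without T1 and also without T2. Further losses were without V1 and V2 for all of these but Mcee, without V3 for Auh and Etfb, without V4 for Etfb and Lias, without T3 for Mut, and without T4 for Auh, Acat1, Mut and Lias. With effective lengths as offset 9 of the 30 were called, beside 1221 of all 14333 tested genes (2767 in the main fit). Auh, Acat1, Pcca, Mcee, Etfa and Etfb were not called there (adjusted p from 0.11 for Etfb to 0.64 for Pcca).

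**Figure D5:**
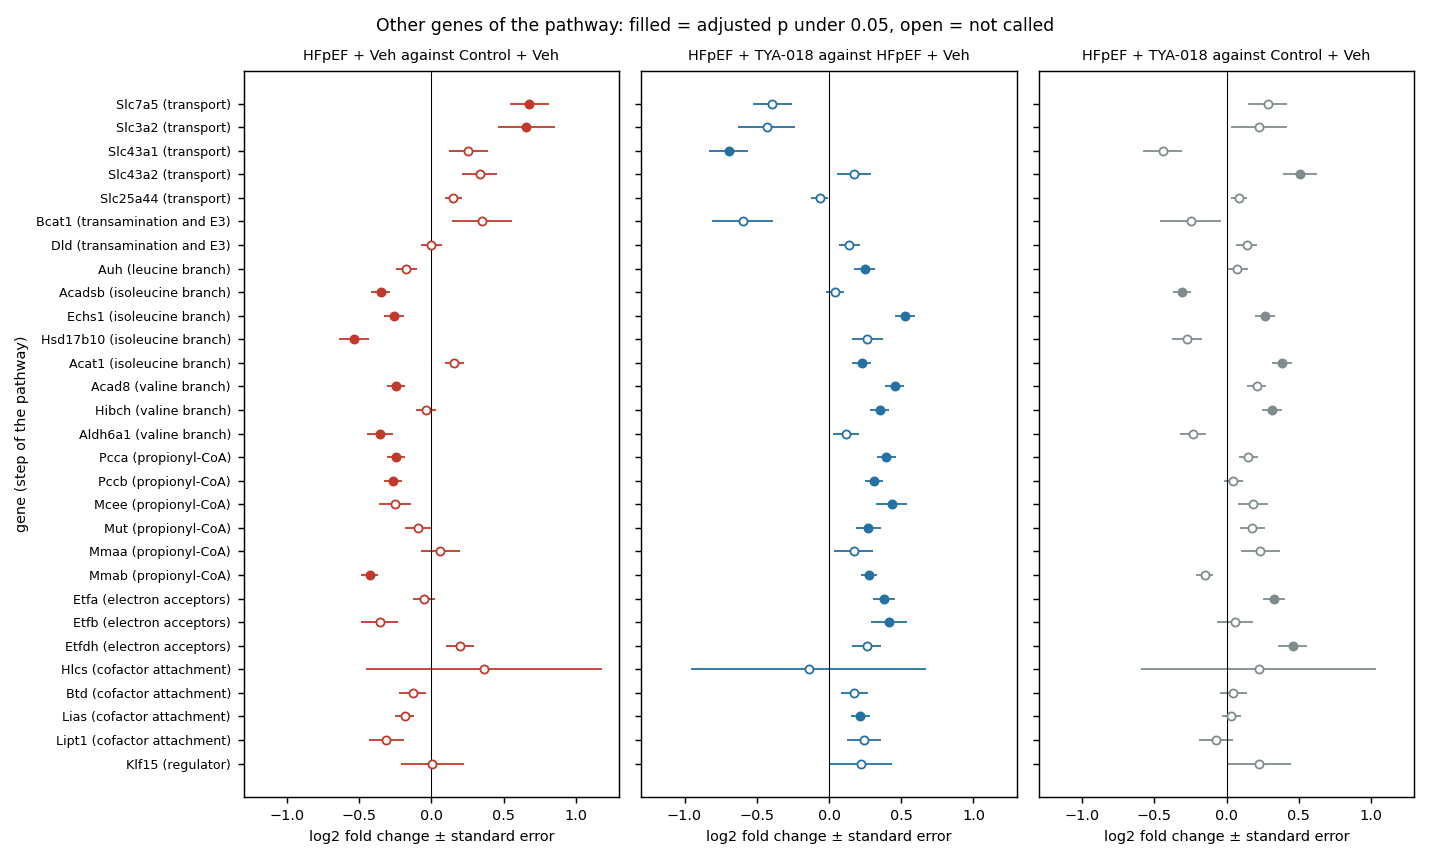
Log2 fold change (horizontal axes, points) with standard error (bars) of 29 of the 30 other genes of the pathway in the 3 comparisons, ordered by step. Filled points passed an adjusted p under 0.05 (10, 14 and 7 genes from left to right), and filled points lie on the negative side for 8 of 10 genes on the left and on the positive side for 13 of 14 in the middle.

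Between HFpEF + TYA-018 and Control + Veh 23 of the 30 genes were not called, which with 4 libraries per group does not show equal levels. Of the 30 genes 7 were called (6 higher, 1 lower), or 23.3%, where 5.86% of all tested genes were (3.12% higher, 2.74% lower). The median log2 fold change was 0.16, beside -0.02 over all tested genes. Acat1 was higher (297 ± 19 in Control + Veh and 387 ± 17 CPM in HFpEF + TYA-018, 0.38 ± 0.068, adjusted p = 0.0093), and was the 1 call kept whichever library was left out. Also higher were the transporter Slc43a2 (LAT4, 0.51 ± 0.12, adjusted p = 0.031), Etfdh, the oxidoreductase that hands flavoprotein electrons to ubiquinone (0.46 ± 0.099, adjusted p = 0.023), Etfa (0.33 ± 0.076, adjusted p = 0.029), Hibch (0.31 ± 0.068, adjusted p = 0.023) and Echs1 (0.27 ± 0.068, adjusted p = 0.042). Acadsb was lower (-0.31 ± 0.065, adjusted p = 0.020). Without T2 1 of the 30 was called, without T1 2, and without C2, C4 or T3 3 each. Calls over all tested genes fell as well, from 840 of 14333 to 308 of 14529 without T2 and 403 of 14508 without T1. They were 543 of 14532 without C2, 325 of 14510 without C4 and 451 of 14514 without T3. With effective lengths as offset edgeR called 0 of the 30, with 11 at an unadjusted p under 0.05, and 206 of all 14333. DESeq2 on the counts called 9 of the 30 and 1513 of all 14333.

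The tested genes whose pattern over the 12 libraries was most like the mean of the 10 were sought among 8855 genes with a mean of at least 5 CPM, by the root mean square difference of log2 CPM centred per gene. Oxct1, the enzyme that commits ketone bodies to oxidation, was closest (0.05, beside a median of 0.25 over the genes compared), with 443 ± 5.9, 339 ± 42 and 443 ± 15 CPM (Control + Veh first, HFpEF + TYA-018 last). Next came Aldh4a1, of proline breakdown (68.9 ± 4.5, 53.1 ± 3.9 and 69.9 ± 3.0 CPM), Fbxo44, a substrate adaptor of a ubiquitin ligase (10.0 ± 0.70, 7.49 ± 1.2 and 10.2 ± 0.60), 0610009O20Rik (96.1 ± 2.9, 79.8 ± 3.6 and 101 ± 6.4) and Usp13, a deubiquitinase (111 ± 6.6, 92.0 ± 4.2 and 117 ± 4.0). The HFpEF + Veh mean of each was the lowest of its 3 means, which is the pattern they were chosen for, and no test was made.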

How the data were processed

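Per the labels and the published methods, the authors trimmed reads with fastp, quantified them with Salmon 1.6.0 against mouse transcripts of GENCODE M25 (GRCm38) and summed transcripts to genes with tximport. The labels name the human build hg38, and labels and methods differ in read layout and length. The authors deposited 3 tables: estimated counts per gene (74.4% to 77.6% whole numbers, not normalised), TPM, and another value, read here as the effective length in bases. All columns were used (0 left out). Estimated counts were rounded and tested with edgeR 4.0.16 (R 4.3.3): filterByExpr by group, TMM scaling, 1 quasi-likelihood fit of 12 libraries (9 residual degrees of freedom, biological coefficient of variation 0.232), two-sided, Benjamini-Hochberg over 14333 genes, threshold 0.05. Alternatives used DESeq2 1.42.0 and limma 3.58.1 on log2(TPM + 1) and log2(TPM + 0.1), and are given in the closing section. The script's estimates were tested on simulated data. Gene positions, 31-base words and longest transcripts came from GENCODE M21, promoters from RefSeq. The members and the gene lists were chosen with earlier results of these data known. Named genes are the 10 members, each of the 30 others called in any comparison, 9 of the others regardless, and the 5 closest in pattern. The counts over the 30 include 1 gene whose values are not reported here. Macrophage markers (3 of 4 listed) summed to 36.6 to 40.7, 49.1 to 66.1 and 35.1 to 44.0 CPM, hepatocyte genes (4) to 23.8 to 67.6, 2.09 to 10.5 and 2.81 to 63.6, and clock genes (9) to 513 to 613, 434 to 480 and 417 to 498 CPM, with Control + Veh first and HFpEF + TYA-018 last. The labels gave no batch, and each group's animal numbers lay together, so group and any batch that followed the numbering cannot be told apart. One library per mouse was read as a separate animal. Counting error is small for well-covered genes at 61.2 M counts and more per library. It is larger for genes at few CPM, among them Hlcs (0 CPM in C2 and 0.923 in T4), Bcat1 and Slc43a1.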

Additional observations from a re-analysis of the deposited data

Results flagged for a closer look

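Of 120 sets of 4 libraries (40 genes in 3 groups), 6 held a library far from the other 3 by Dixon's ratio, and chance alone gives such a library in about 1 in 20 sets. Ppm1k stood at 26.4 CPM in V3 and at 23.6 to 23.8 in the other HFpEF + Veh libraries. Bcat1 stood at 1.66 CPM in C3 and at 1.195 to 1.27 in the other controls. In T1, Dld was at 159 CPM (172 to 174 in the other HFpEF + TYA-018 libraries) and Mut at 36.0 CPM (37.9 to 38.3). Aldh6a1 was at 85.5 CPM in C1 and at 77.0 to 78.2 in the other controls. Hlcs, which attaches biotin to the carboxylases, was at 0.923 CPM in T4 and at 1.79 to 1.94 in the other HFpEF + TYA-018 libraries.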

How the results depend on the processing

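No paired analysis was possible because the animal numbers in the labels differed from group to group. Of the 300 values of the 10 genes under the 10 alternatives that keep all libraries of the comparison, 243 moved by less than the spread between replicates and 57 by more. All 57 came from effective lengths as offset or from the 3 TPM scales. The other alternatives stay on counts without lengths and differ little from the main fit. For the 30 other genes, 778 of 885 such values stayed on the same side of the threshold, with no change of sign where the gene was called.

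The number of the 30 other genes called in HFpEF + Veh against Control + Veh was 11. It was 7 with effective lengths as offset, 2 with limma on log2(TPM + 1), 2 on log2(TPM + 0.1) and 4 on log2(TPM + 1) rescaled to nuclear protein-coding genes. Calls over all 14333 tested genes fell too, from 3033 in the main fit to 1444 with the offset. They were 172 and 301 on the first 2 TPM scales, and 1058 of 13344 on the rescaled one. Leaving out single libraries gave 7 of the 30 (without C2, and also without V2) to 14 (without C1). Over all genes the calls were then 2123 of 14532 without C2, 2382 of 14524 without V2 and 3992 of 14503 without C1. In HFpEF + TYA-018 against HFpEF + Veh 15 of the 30 were called, then 9 with lengths as offset and 7 on rescaled TPM. Over all genes the calls were 2767 of 14333, 1221 of 14333 and 743 of 13344 in the same order. Leaving out libraries gave 9 of the 30 (without T1, and also without T2) to 16 (without C1). Over all genes 1485 of 14508 were called without T1, 1631 of 14529 without T2 and 3251 of 14503 without C1. In HFpEF + TYA-018 against Control + Veh 7 of the 30 were called, and 840 of all 14333 tested genes. With lengths as offset edgeR called 0 of the 30 (11 at an unadjusted p under 0.05) and 206 of all. With limma 0 of the 30 were called on each of the 3 TPM scales (7 at an unadjusted p under 0.05 on each). Over all genes limma called 9 and 11 of 14333, and 94 of 13344 on the rescaled scale. DESeq2 called 9 of the 30 and 1513 of all 14333. Leaving out libraries gave 1 of the 30 (without T2, where 308 of all 14529 were called) to 7.

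The median log2 fold change of the 10 genes in HFpEF + Veh against Control + Veh was -0.29. It was -0.40 on log2(TPM + 1) and -0.49 on log2(TPM + 0.1), and -0.39 (without V3) to -0.23 on leaving out libraries. In HFpEF + TYA-018 against HFpEF + Veh it was 0.42, then 0.32 with lengths as offset, 0.61 on log2(TPM + 1), 0.76 on log2(TPM + 0.1), 0.31 on rescaled TPM, and 0.35 to 0.49 on leaving out libraries. In HFpEF + TYA-018 against Control + Veh it was 0.03, then 0.28 on log2(TPM + 1), 0.30 on log2(TPM + 0.1), and 0.01 to 0.09 on leaving out libraries. The TPM scales moved the median of all genes too: it was -0.07, 0.17 and 0.08 on log2(TPM + 1) and -0.17, 0.34 and 0.17 on log2(TPM + 0.1) in the 3 comparisons. Pcca reversed in HFpEF + Veh against Control + Veh, to 0.049 with lengths as offset (adjusted p = 0.88) and 0.11 on rescaled log2(TPM + 1) (adjusted p = 0.74). The cause was not tested. A change of sign in a gene that was not called is not counted as a reversal.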
